A study of Homo sapiens with 7 samples.

Results

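Antibody peaks of N6-methyladenosine (m6A) that were present in both antibody libraries and in neither chemical library of HEK-293T cells numbered 10842, of 59659 peaks in the 4 lists of the series. They were chosen by measured peak overlap, as MeRIP replicate 1 peaks whose blocks (the contiguous stretches that a split peak is made of) overlapped a replicate 2 peak by 1 nt or more on the same strand and overlapped no m6A-ORL peak on either strand. They are called antibody-only peaks here, and the 6505 reproduced peaks that an m6A-ORL peak did overlap are called shared peaks. HEK-293T is an established line of human embryonic kidney origin, and the labels name no treatment of the cells themselves. In MeRIP, RNA fragments were bound by an anti-m6A antibody. In m6A-ORL, fragments went through NO/O2, TDO and the biotin probe BA, bound to streptavidin and were released by DTT. The labels give polyA RNA for both MeRIP libraries and for m6A-ORL replicate 2, and total RNA for m6A-ORL replicate 1, so RNA type and replicate cannot be told apart within m6A-ORL, and the protocol text describes oligo(dT) selection without naming an exception. Each method has 2 captured libraries, and 3 input samples were not analysed here. All 6 marker genes listed for HEK-293T had a reproduced MeRIP peak, and none of 16 markers of other cell types did. However, 3 of these 16, all fibroblast markers, had a peak in at least 1 of the 4 lists.

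m6A is written co-transcriptionally by a complex built around METTL3 and METTL14, mostly in the sequence context called DRACH, in which an adenosine follows a purine and precedes a cytosine. It is found above all near stop codons, in 3' untranslated regions and in long internal exons. YTH-domain proteins read it, often speeding mRNA decay, and FTO and ALKBH5 can remove it. A peak in such a list depends on how much of a transcript is present and on how much of it is captured, and transcript levels were not measured here.

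The sequences below show the DRACH-type letters inside 8 of the antibody-only peaks. They are the best-scored antibody-only peaks in named genes that lay partly in a RefSeq promoter window (GRCh38.p14, 300 bases that run from upstream of a gene start into the gene), faced no peak on the other strand, and held the letters GGAC followed by any base but G, inside 29 readable bases. They were picked because they hold these letters, after their values were seen. The promoter window need not be at the start of the named gene. The peaks of ZGPAT and LRRC8A were centred at 97.9% and 95.5% of their gene spans, near the 3' end. Each line gives the transcript strand 5' to 3', with the 5 letters in capitals.
ZGPAT, plus strand, chr20:63735508-63735536: gcgaacccagcgGGACAtcaggagcatcc
PHF23, minus strand, chr17:7239586-7239614: ctgttcccggacGGACTacaaaacccttg
LRRC8A, plus strand, chr9:128916290-128916318: ggtggtggaggaGGACCtgttcaacacac
MEN1, minus strand, chr11:64810566-64810594: accctaggggcgGGACTtcatgtcccagc
FOXO3, plus strand, chr6:108560976-108561004: gcgggcgcggcaGGACTgggaggtggcgg
ERCC6, minus strand, chr10:49524235-49524263: gggggcagaggcGGACCtgtctggagatg
PCDH10, plus strand, chr4:133149334-133149362: aggaggaaggaaGGACTggaaggaaaaag
AMH, plus strand, chr19:2249326-2249354: acccacgatgcgGGACCtgcctctcacca

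These 8 sites lie in genes with different m6A-ORL records. ZGPAT, a zinc finger transcription repressor, and ERCC6, a transcription-coupled repair factor, had no m6A-ORL peak under their own Ensembl ID in either list. Peaks listed under other IDs inside their spans are not covered by this. The nearest same-strand m6A-ORL peaks lay 6143 nt (ZGPAT) and 819040 nt (ERCC6) away. MEN1, which encodes menin, had 1 and 3 m6A-ORL peaks (replicates 1 and 2), and the nearest lay 238 nt from its antibody-only peak. LRRC8A, a subunit of the volume-regulated anion channel, also had 1 and 3, the nearest 805 nt away. PCDH10, a protocadherin, had 6 and 1, the nearest 598 nt away. FOXO3, a forkhead transcription factor, had 2 and 0, the nearest 102150 nt away. PHF23, a PHD finger gene, had 1 and 1, the nearest 2349 nt away, and AMH, the anti-Müllerian hormone gene, had 0 and 1, the nearest 1163 nt away.

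Antibody-only peaks formed the larger part of the reproduced antibody map. Of 20760 MeRIP replicate 1 peaks, 17347 (83.6%) were reproduced, and 62.5% of those were antibody-only. These 2 shares are fixed by the rule and are given as a description. The m6A-ORL lists were smaller, with 11022 (total RNA) and 7661 (polyA) peaks against 20760 and 20216 by MeRIP. How far list size shapes the antibody-only share was not tested. Starting from replicate 2 gave 10892 antibody-only peaks. The 10842 peaks lay in 6550 genes, counted by the Ensembl ID in the lists. Merging overlapping ones on either strand left 9857 positions. Of the shared peaks, 3598 were overlapped by the total RNA m6A-ORL list only, 1543 by the polyA list only and 1364 by both. Read depth is unknown for every list, and all intervals here are exact 95% Clopper-Pearson intervals that cover counting error only and treat peaks of 1 gene as independent.

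Few peaks lay within 30 nt of the border of the rule. Among antibody-only peaks, 139 had a same-strand m6A-ORL peak within 30 nt. Among shared peaks, 235 had 1 to 30 nt of m6A-ORL overlap. Their median widths were 211 and 181 nt. In the shared group as a whole the median m6A-ORL overlap was 151 nt. A larger required overlap moved many more peaks. Asking m6A-ORL to cover at least 50% of the peak gave 14522 antibody-only peaks. On the replicate side, 5340 antibody-only peaks were covered along their whole length by replicate 2 peaks, and the median coverage was 96.7%. For 306 of them, the replicate 2 peak reached an m6A-ORL peak that the replicate 1 peak did not touch.

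The antibody-only share rose steadily from the best-scored to the worst-scored peaks. The score is the authors' own value per peak, is smaller for better peaks in the manner of a p-value, and was used only to rank peaks within a list. In the best-scored quintile of reproduced MeRIP replicate 1 peaks, 877 of 3469 (25.3%, interval 23.8 to 26.8) were antibody-only. The share was 55.3%, 66.7% and 78.1% in the next 3 quintiles and 87.1% (85.9 to 88.2) in the last. With replicate 2 coordinates the 5 shares were 26.8%, 55.6%, 68.3%, 77.3% and 85.0%. The median antibody-only peak stood at percentile 52.6 of the MeRIP replicate 1 ranking and the median shared peak at percentile 23.2, where low is well scored. Still, 12 antibody-only peaks had the lowest possible score of 0, against 275 shared peaks.

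**Figure D1:**
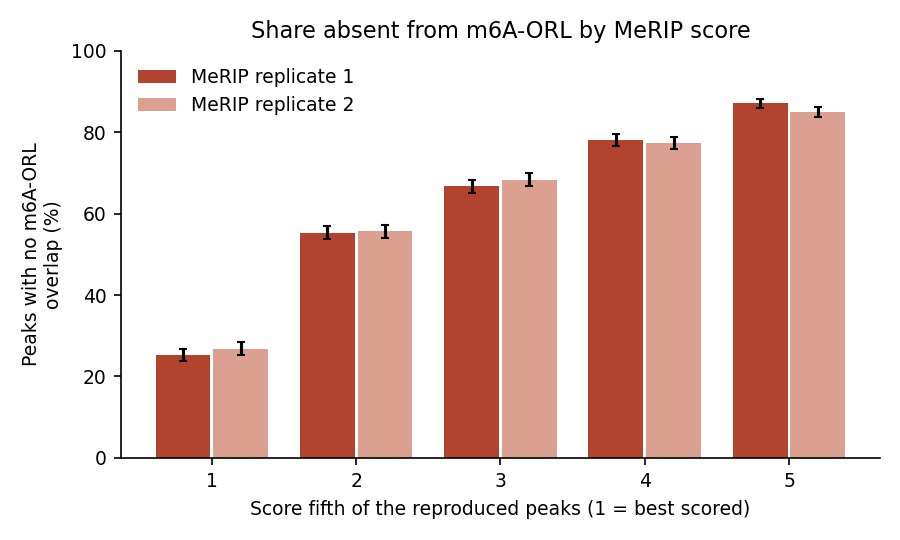
Share of reproduced MeRIP peaks with no m6A-ORL overlap (y axis, percent) in 5 equal groups by the authors' score (x axis, 1 = best scored), for coordinates of either MeRIP list; bars are shares and error bars exact 95% binomial intervals. The share climbs from 25.3% to 87.1% for replicate 1 and from 26.8% to 85.0% for replicate 2.

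Antibody-only peaks were also narrower. Their median summed block width was 211 nt (quartiles 151 and 331), against 361 nt (211 and 657) for shared peaks and 91 nt for peaks that were not reproduced. A wider peak offers more bases to overlap, so width is tied to the rule, and width also goes with score. Of reproduced peaks up to 100 nt wide, 85.4% (83.5 to 87.1) were antibody-only, and of those over 1000 nt 21.6% (19.0 to 24.2). The order by score held among peaks over 200 nt, where the antibody-only share was 25.2% in the best-scored quintile, 55.7%, 68.5% and 80.5% in the next 3 and 88.5% in the last. Peaks up to 200 nt gave 36.4% (8 of 22), 44.6%, 59.4%, 76.1% and 86.9%, so in every quintile but the best-scored the narrower peaks were less often antibody-only than the wider ones. Within the middle quintile, median widths were close (269 nt antibody-only, 241 nt shared). Of single-block peaks in MeRIP replicate 1, 89.2% had a width within 1 nt of a multiple of 30, so widths move in steps of that size.

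**Figure D2:**
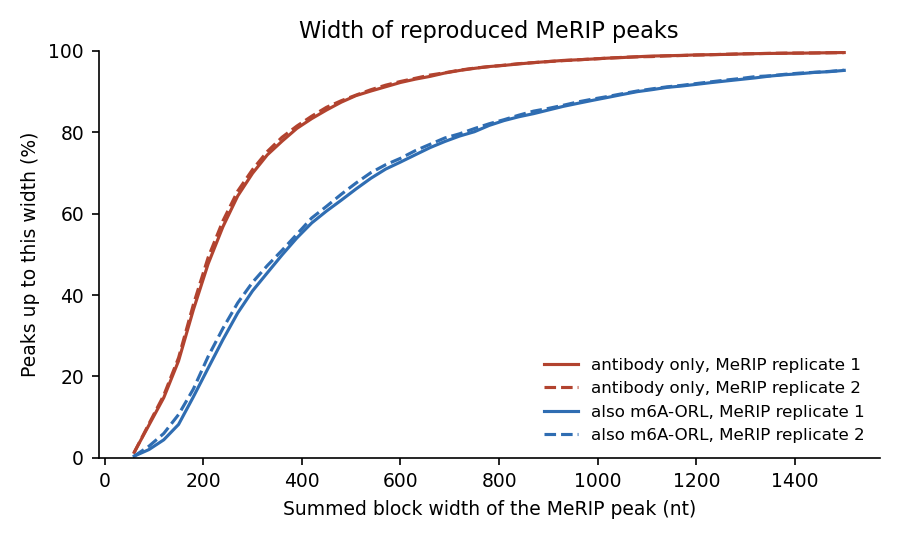
Cumulative percent of reproduced MeRIP peaks (y axis) up to a given summed block width in nt (x axis), for antibody-only and shared peaks with coordinates of either MeRIP list. The antibody-only curves lie to the left, with medians of 211 nt in both lists against 361 and 360 nt for shared peaks.

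The genes of antibody-only peaks split into those that m6A-ORL did not list at all and those that it listed elsewhere. Of the 10842 peaks, 5177 (47.7%, interval 46.8 to 48.7) were in 3280 genes with no m6A-ORL peak in either list. A further 2330 (21.5%) were in genes with peaks in the total RNA list only, 1369 (12.6%) in the polyA list only and 1966 (18.1%) in both. Median widths were 211 nt in all 4 groups. Median score percentiles ran from 47.5 where both lists had the gene to 56.3 where neither did. Near neighbours were few: 7.18% of antibody-only peaks had a same-strand m6A-ORL peak within 200 nt and 22.9% within 1000 nt of genomic distance, introns included. In genes listed by both m6A-ORL libraries the nearest m6A-ORL peak lay a median of 969 nt away (quartiles 298 and 4541).

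**Figure D3:**
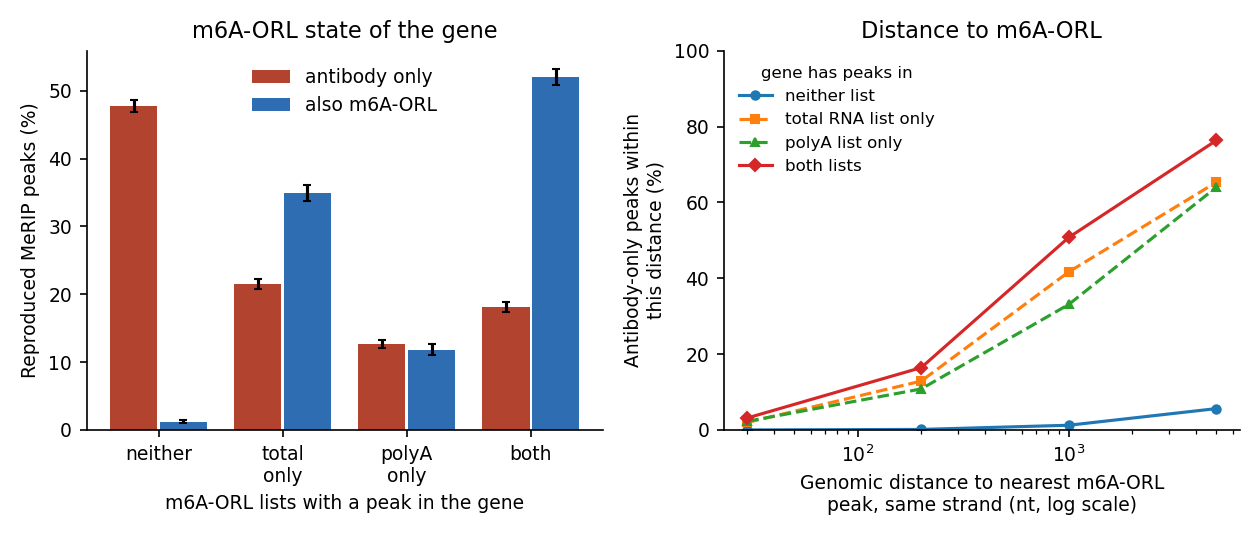
Left, percent of antibody-only and shared MeRIP replicate 1 peaks (y axis) by which m6A-ORL lists have a peak under the same gene (x axis), with exact 95% binomial intervals. Right, percent of antibody-only peaks (y axis) with a same-strand m6A-ORL peak within a genomic distance in nt (x axis, log scale), by the same gene groups; 50.8% in genes listed by both libraries had one within 1000 nt.

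At the level of genes, 8812 had a reproduced MeRIP peak and 6550 of them (74.3%) held an antibody-only peak. In 3334 genes (37.8%) m6A-ORL listed no peak. In 4339 genes (49.2%) every reproduced peak was antibody-only, and 2776 of these had a single reproduced peak. In 2211 genes antibody-only and shared peaks stood side by side. In these genes the shared peaks had the better median score in 1709 genes (77.3%), and 78.4% with replicate 2 coordinates. The medians over these genes were percentile 49.3 for antibody-only and 23.6 for shared peaks, and widths of 211 and 420 nt. Antibody-only peaks lay nearer the 5' end in 1083 of 1928 named genes (56.2%). Over all 1928, the median signed difference was 1.69% of the genomic span toward the 5' end. These are descriptions, since overlap chose the peaks, and no test was made.

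Along genes, both kinds of peak were most frequent at the 3' end. The final 10% of the genomic span held 37.2% of antibody-only peaks (interval 36.2 to 38.2, 8999 peaks in named genes) and 37.7% of shared peaks (36.4 to 38.99). The first 10% held 15.1% (14.3 to 15.8) and 12.3% (11.5 to 13.2). Peaks reaching within 300 nt of the annotated 5' end were 10.95% and 11.02%. Within score quintiles, best first, the final 10% held 48.2%, 39.9%, 39.2%, 33.7% and 33.8% of antibody-only peaks. The shares for shared peaks were lower in each, at 41.0%, 37.4%, 37.1%, 32.5% and 29.5%. Peaks split into more than 1 block were 15.3% (14.6 to 16.0) and 22.6% (21.6 to 23.6), but 16.7% and 17.1% in the middle score quintile. No exon annotation was used, so exon, intron and untranslated region cannot be given for single peaks.

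**Figure D4:**
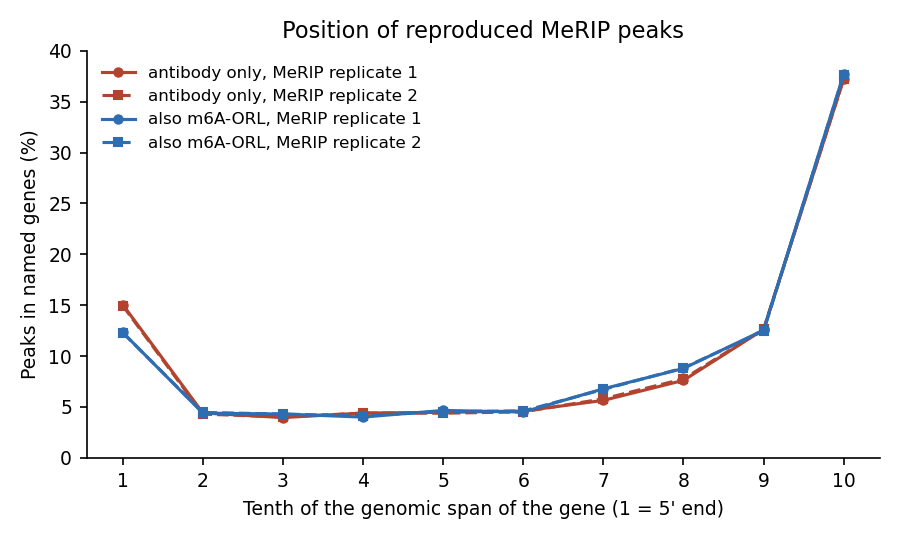
Percent of reproduced MeRIP peaks in named genes (y axis) in each 10% step of the genomic gene span from the 5' end (x axis), for antibody-only and shared peaks with coordinates of either MeRIP list. All 4 curves end near 37% in the final step; the first step holds 15.1% of antibody-only and 12.3% of shared peaks in replicate 1.

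Noncoding genes contributed more of their peaks. Of 809 reproduced peaks in long noncoding RNA genes, 660 (81.6%, interval 78.7 to 84.2) were antibody-only, against 8141 of 13597 (59.9%, 59.0 to 60.7) in protein-coding genes. In the best-scored quintile these were 38.96% (28.0 to 50.8) and 24.6% (23.03 to 26.2), and in the last 94.4% and 85.3%. Of the noncoding antibody-only peaks, 76.8% were in genes with no m6A-ORL peak, against 42.2% of protein-coding ones. HCG18, a long noncoding RNA of the MHC region, had 8 antibody-only peaks at 6 separate positions. Each MeRIP list held 11 peaks for it, and the m6A-ORL lists 1 and 0. TTC28-AS1 had 7 antibody-only peaks, with 7 and 8 MeRIP peaks and none by m6A-ORL, and 2 of its 7 faced a peak on the other strand. LINC01128 had 5, with 6 and 8 MeRIP peaks and none by m6A-ORL. HCG18 and TTC28-AS1 had the most antibody-only peaks among long noncoding RNA genes, while LINC01128 tied at 5 with several others. Of those others, THAP7-AS1, EMC3-AS1 and PTOV1-AS1 each had 3 of 5 peaks facing the other strand. ZNF8-DT had 1 such peak, and CTBP1-DT and LINC01128 had 0. The genes were picked after the values were seen.

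Some antibody-only peaks cannot be placed on a strand with confidence. Of them, 1222 (11.3%) overlapped a MeRIP replicate 1 peak listed for a gene on the opposite strand, as did 12.3% of shared peaks, and in 101 cases both ends agreed within 5 nt. The sources do not state whether reads were counted by strand, so reads of such gene pairs cannot be told apart. Another 912 (8.41%) overlapped a second replicate 1 peak on the same strand, 251 under the same gene ID and 661 under other IDs only, so counts of peaks per gene can exceed the number of separate positions.

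The best-scored antibody-only peaks in named genes whose whole span was free of m6A-ORL peaks were mostly wide and had scores at or near 0 in both MeRIP lists. SAMD11, which encodes a SAM-domain protein, carried one of 1700 nt in 3 blocks at chr1:942368-944581 (score 0 in both lists), 1670 nt wide in replicate 2. It faces a peak of the opposite strand. C21orf58 had one of 897 nt in both lists at chr21:46322979-46323875, centred at 1.89% of its span from the 5' end, and 6 antibody-only peaks in all. P3H3, a relative of collagen prolyl hydroxylases, had one of 658 nt at chr12:6839034-6839847 and 628 nt in replicate 2. The ubiquitin ligase gene RNF25 had a single MeRIP peak per list, 629 and 540 nt wide, at chr2:218663892-218664520. ABHD17A, a depalmitoylase gene, had 6 antibody-only peaks, the best 330 and 360 nt wide at chr19:1876930-1877259. All 5 scored 0 in both MeRIP lists.

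The rest of that group had scores close to 0. HS6ST1, a heparan sulfate 6-O-sulfotransferase, held a peak of 2248 nt in 2 blocks at chr2:128266719-128289740, scored 1e-312, and 4 antibody-only peaks in all. R3HCC1 had 1 peak per list, 688 nt wide in both, at chr8:23289085-23290990. ZNHIT2, a zinc finger HIT protein gene, had 2 antibody-only peaks, the best 1247 and 1306 nt wide at chr11:65116403-65117649, facing a peak of the other strand. PGGHG, a glucosidase of collagen glycans, had 5, the best 1226 and 1285 nt wide at chr11:294446-295748. The remaining one, LINC01297-DUXAP10-NBEAP6 at chr14:19300281-19302707, lies in a noncoding locus whose name includes pseudogenes, was 2427 nt wide in replicate 1 and 1469 nt in replicate 2, and also faces an opposite-strand peak. The peaks of SAMD11, P3H3, RNF25, ABHD17A and HS6ST1 were centred at 95.6% to 97.1% of the span, near the 3' end, and that of R3HCC1 at 25.02%.

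A different set of strong antibody-only peaks stood in genes that both m6A-ORL libraries listed elsewhere. RPL29, a large-subunit ribosomal protein gene, had a peak at chr3:51993582-51993820 with score 0 in both MeRIP lists, 239 and 210 nt wide. Each m6A-ORL library had 1 peak in RPL29, the nearest 1153 nt away. ISG20L2, a nucleolar exonuclease gene, had one at chr1:156723176-156723445, 270 nt in both lists, 357 nt from the nearest m6A-ORL peak, with 3 m6A-ORL peaks in each library. ZNF276, a zinc finger gene, had one of 839 and 809 nt at chr16:89739009-89739847, 418 nt from m6A-ORL, and it faces an opposite-strand peak. TXLNA, the taxilin alpha gene, had one of 510 nt in both lists, 477 nt from m6A-ORL. NHSL1 had one of 1138 and 899 nt, 478 nt from m6A-ORL.

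The other 5 genes of this set had their nearest chemical peak 748 to 9352 nt away. ZNF629 had 6 antibody-only peaks among 8 and 7 MeRIP peaks, while m6A-ORL listed 3 in each library, the nearest 748 nt from the best-scored one. WDR81, a regulator of endosomes, had 4, with the nearest m6A-ORL peak 3429 nt from the best. PRR14L had 3 among 11 MeRIP peaks per list, and 9 and 1 by m6A-ORL, 8365 nt away. PLEKHM2, an adaptor for lysosome transport, had 2, with 9086 nt to m6A-ORL. GFOD2 had a single one of 1527 and 1497 nt, 9352 nt away. In these genes, then, both methods listed the gene while a top-scored antibody position had no chemical overlap.

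Genes with the most antibody-only peaks were mostly long coding genes. AHNAK2, a giant scaffold protein, had 20 and 23 peaks by MeRIP against 0 and 1 by m6A-ORL. All 15 of its reproduced peaks, at 13 separate positions, were antibody-only. BSN, which encodes the presynaptic scaffold bassoon, had 14 of 14 reproduced, with no m6A-ORL peak. PCLO, encoding the related scaffold piccolo, had 9 of 9, with 0 and 1 by m6A-ORL. RNF213, a giant ubiquitin ligase, had 13 of 14, with 3 and 0. AHNAK had 12 of 14, with 7 and 0. INF2, a formin, had 9 of 10, with 0 and 2 by m6A-ORL. SPG7, a mitochondrial protease, had 9 of 13, with 4 and 1. DNASE1 had 10 of 10, with 0 and 2, and 1 of its peaks faced the opposite strand. TICAM1, a Toll-like receptor adaptor, and KCTD11 had 9 of 9 each, at 5 separate positions, and no m6A-ORL peak, and 2 of the KCTD11 peaks faced the opposite strand. Their best scores ran from 2.5e-16 (BSN) to 4e-87 (KCTD11).

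Genes of the m6A machinery held antibody-only peaks among writers and readers and none among erasers. Antibody-only peaks were found in 7 of 9 writer genes with a reproduced MeRIP peak, 4 of 9 reader genes and 0 of 2 eraser genes, beside 74.1% of all named genes with a reproduced peak. The reader count was 7 without m6A-ORL replicate 1 and 8 without replicate 2. By peaks, 10 of 22 in writers (45.5%, interval 24.4 to 67.8) and 5 of 16 in readers (31.3%, 11.02 to 58.7) were antibody-only, against 61.4% over all named genes. No m6A-ORL peak was listed for METTL3 or YTHDC2, where 35.3% of all named genes had none. METTL3, the catalytic subunit, had 1 peak per MeRIP list at chr14:21503270-21503449, 180 and 150 nt wide, scored 1.3e-10 and 1.8e-10. YTHDC2, an RNA helicase with a YTH domain, had 1 per list at chr5:113593340-113593639, scored 5e-16 and 4.5e-09.

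In the other writer and reader genes m6A-ORL listed peaks elsewhere. VIRMA, the scaffold of the writer complex, had 3 antibody-only peaks and 3 and 0 m6A-ORL peaks, and the distances to the nearest were 29, 89 and 22633 nt. METTL16, which methylates U6 RNA and MAT2A, had 2 that overlap each other near its 3' end (chr17:2416259-2416469). CBLL1 had 1, 59 nt from m6A-ORL, and RBM15B 1, 389 nt away. ZC3H13 had 1 of its 5 reproduced peaks, while m6A-ORL listed 3 and 7 for it. PCIF1, the cap-adjacent m6Am methyltransferase, had 1, scored 1.5e-05 and 0.00091, and it faced an opposite-strand peak. Among readers, IGF2BP2 had 2, the better at chr3:185643739-185644009 with scores of 2.5e-30 and 4e-15, and YTHDC1 and YTHDF1 had 1 each. FTO and ALKBH5 each had 1 reproduced peak, and both were shared.

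Signalling genes gave further cases. Of 17 Wnt ligand and receptor genes with a reproduced peak, 15 (88.2%) held an antibody-only peak, beside 74.1% of all named genes, and 34 of their 50 peaks (68.0%, interval 53.3 to 80.5) were antibody-only. FZD9, a Frizzled receptor, ROR2, a receptor tyrosine kinase for Wnt, and the ligand gene WNT5B had 4 peaks in each MeRIP list, all antibody-only, and none by m6A-ORL. In the Notch pathway 13 of 16 genes held one, led by the coactivators MAML3 (6 antibody-only peaks) and MAML2 (3), neither with an m6A-ORL peak. NOTCH2 had 3 although m6A-ORL listed 5 and 2 peaks in it. In the Hippo pathway 12 of 15 did, among them FAT4 (6), the kinase gene LATS2 (5) and DCHS1 (4).

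In 3 other signalling lists 57.1% to 66.7% of genes held one, below the 74.1% of all named genes with a reproduced peak. Hedgehog genes held an antibody-only peak in 5 of 8 cases, with GLI2 (4), GLI1 (2, with no m6A-ORL peak) and the receptor PTCH1 (2, of which 1 faced the other strand). TGF-beta and BMP genes did in 12 of 18, with SMAD3 (4), SMAD6 (3) and the receptor BMPR2 (3). The list of beta-catenin destruction complex and TCF genes, which also holds the RING finger gene RNF43, did in 8 of 14. LEF1, AXIN1 and RNF43 had 2 each and the best scores among its genes with that number. Median antibody-only peaks per gene was 1 in these 3 lists and 1 over all named genes with a reproduced peak.

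Chromatin, developmental and repair genes are read against all named genes with a reproduced peak, of which 74.1% held an antibody-only peak and 35.3% had no m6A-ORL peak, and of whose peaks 61.4% were antibody-only. Polycomb genes held one in 10 of 12, and none of the 12 lacked an m6A-ORL peak: RING1 had 2 (0 and 1 by m6A-ORL) and CBX2 had 2 (2 and 5). HOX genes held one in 19 of 23, with HOXB13 (3, and none by m6A-ORL), HOXD3 (2) and HOXB9 (2). SOX genes did in 6 of 8, with SOX8, SOX21 and SOX18 at 2 each and none by m6A-ORL. DNA repair and checkpoint genes did in 9 of 14, by 16 of 36 peaks (44.4%, 27.9 to 61.9). XRCC3 had 6, of which 5 faced an opposite-strand peak, FANCA had 3, of which 1 did, and PMS2 had 1.

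In gene families the share of genes with an antibody-only peak ran from 65.6% (F-box) to 87.5% (Kelch-like), beside 74.1% of all named genes. ZNF genes held an antibody-only peak in 209 of 260 cases, by 368 of 602 peaks (61.1%, 57.1 to 65.0), with ZNF629, ZNF407 (at 4 separate positions), ZNF618 and ZNF517 at 6 each. Solute carriers did in 100 of 133, led by the zinc transporter SLC39A3 and by SLC45A4 (6 each, those of SLC39A3 at 5 separate positions, with no m6A-ORL peak) and SLC24A1 (4). TMEM genes did in 58 of 81, with TMEM200C at 6 (3 separate positions), TMEM129 at 4 and TMEM271 at 3. Among RNF genes 28 of 38 did, with RNF123 and RNF150 at 3 each after RNF213, and all 3 of RNF123 faced an opposite-strand peak. Kelch-like genes did in 14 of 16, with KLHL22 and KLHL29 at 4 and KLHL25 at 2. F-box genes did in 21 of 32, by 26 of 58 peaks (44.8%, 31.7 to 58.5), with FBXO17 at 3 and FBXL18 and FBXO10 at 2. Heparan sulfate enzymes did in 16 of 19, led by GLCE (5), HS6ST1 (4) and NDST1 (4).

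Among cytosolic ribosomal protein genes, peaks of any of the 4 lists were named for 53 of them, and 11 had a reproduced MeRIP peak. Of these 11 with such a peak, 10 held an antibody-only peak, beside 74.1% of all named genes with a reproduced peak. By peaks, 13 of 17 (76.5%, interval 50.1 to 93.2) were antibody-only, beside 61.4% over all named genes. All 11 also had an m6A-ORL peak, where 35.3% of all named genes with a reproduced peak had none. RPS24 had 2 antibody-only peaks with 2 and 1 m6A-ORL peaks, RPL28 had 2 with 3 and 1, and RPL7L1, a ribosomal protein L7-like gene, had 2 with 1 and 1. No peak in any list could be named for a clustered protocadherin gene. An ID that fits more than 1 gene span can stay without a name, so this does not show that such peaks were absent.

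**Figure D5:**
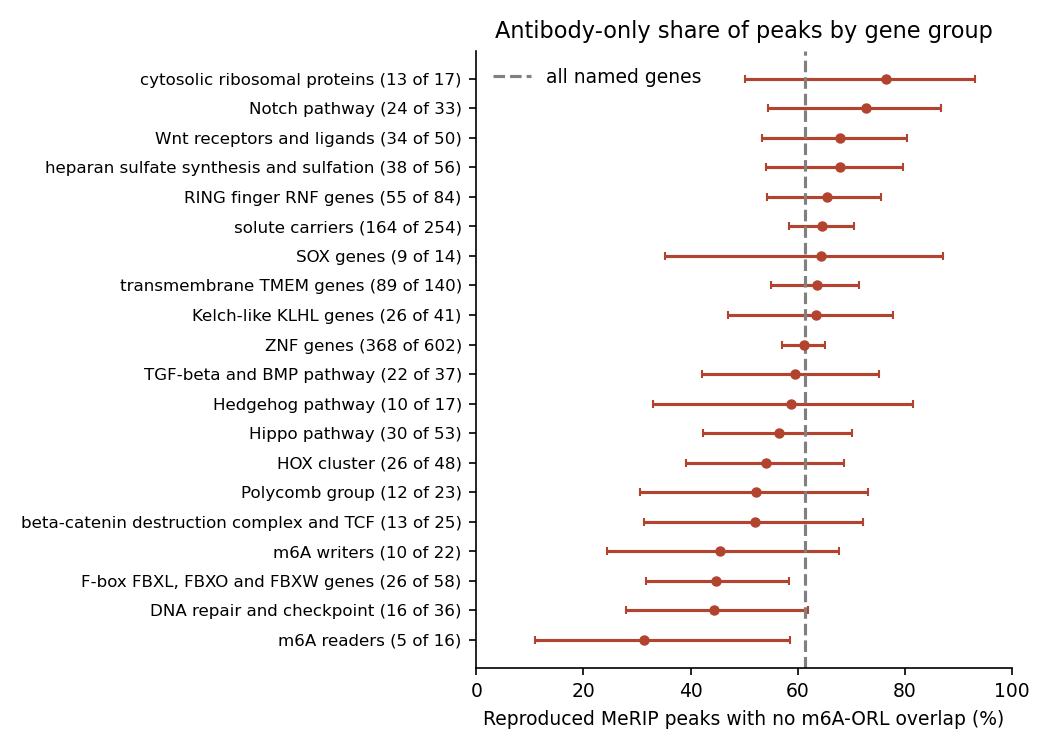
Percent of reproduced MeRIP replicate 1 peaks that are antibody-only (x axis) for each gene group with at least 5 such genes (y axis, with antibody-only and reproduced peak counts), as points with exact 95% binomial intervals; the dashed line is the 61.4% of all named genes. Point values run from 31.3% (m6A readers) to 76.5% (cytosolic ribosomal proteins), and the intervals of all groups but the m6A readers and F-box genes include the line.

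DRACH-type letters could be read in part of the peaks only. Stretches of at least 50 nt lay in promoter windows for 834 antibody-only and 557 shared peaks, with a GC content of 67.26% and 67.25%. GGAC followed by any base but G stood on the transcript strand in 336 antibody-only peaks (40.3%, interval 36.9 to 43.7) and 202 shared peaks (36.3%, 32.3 to 40.4). On the opposite strand of the same stretches the shares were 30.9% and 26.4%. Peaks not reproduced gave 22.3% and 20.5%. Per 100 nt, antibody-only peaks held 0.505 such words on the transcript strand and 0.355 on the other, and shared peaks 0.394 and 0.256. All 18 DRACH words, which include these, gave 1.36 and 1.12 per 100 nt in antibody-only peaks, and 1.16 and 0.957 in shared peaks. Of all 35116 promoter windows of 300 bases, 58.7% held one of the GGAC words and 97.2% a DRACH word, on the gene's own strand, and of their last 50 bases 14.5% held a GGAC word. The matches describe letters near annotated gene starts, not always the start of the gene named for the peak, and not sites of modification.

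Antibody-only peaks covered 8 of the 1562 microRNA hairpins in the RefSeq table, within 11 peaks, and shared peaks covered 12. The mature sequences inside the peaks are given to show which microRNA each position encodes, with the seed, bases 2 to 8, in capitals.
hsa-miR-6727-5p: cUCGGGGCaggcggcugggagcg
hsa-miR-6727-3p: uCCUGCCAccuccuccgcag
hsa-miR-7844-5p: aAAACUAGgacuguguggugua
hsa-miR-3652: cGGCUGGAggugugagga
hsa-miR-4315: cCGCUUUCugagcuggac
hsa-miR-3615: uCUCUCGGcuccucgcggcuc
hsa-miR-6787-5p: uGGCGGGGguagagcuggcugc
hsa-miR-6787-3p: uCUCAGCUgcugcccucuccag
hsa-miR-378i: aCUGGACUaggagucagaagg

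No seed was shared between these microRNAs. MIR6727 (chr1:1312502-1312566, minus strand) lay whole inside a peak of INTS11, the catalytic subunit of the Integrator complex, 121 nt wide and scored 2.1e-09, in a gene that both m6A-ORL libraries listed. MIR378I (chr22:41923222-41923297, minus strand) lay whole inside a peak of 748 nt listed for TNFRSF13C, scored 1.6e-20. MIR6787 (chr17:82236668-82236728, plus strand) lay in a peak of SLC16A3, a lactate exporter, scored 3.6e-06. MIR4315-1 (chr17:45475363-45475435, minus strand) lay in a peak of PLEKHM1, and MIR7844 in part in one of TMCC3, 2 genes with no m6A-ORL peak. MIR3615 had a peak of 87 nt that matched its hairpin exactly and was listed under its own ID. MIR3652 lay whole in a peak of 180 nt scored 1.3e-16, under an Ensembl ID that got no name. MIR4453 was covered over 43 of its 89 bases. Peaks of 131 nt and 73 nt with exactly the hairpin ends of MIR3652 and MIR4315-1 were listed besides those of the longer genes, scored 2.3e-09 and 0.0079. A peak of 98 nt listed under the ID of MIR7844 also scored 0.0079, the worst score in the MeRIP replicate 1 list.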

How the data were processed

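The 4 captured libraries each have a deposited peak list of 12 BED columns, per the file headers, with an Ensembl ID, blocks and a score. The score that the authors deposited runs from 0 to 0.0081, like a p-value or a q-value, with the smaller the better. Which of these it is was not stated, nor were the caller, its input, its threshold or pooling. The tool names Trim Galore, STAR and HOMER and the build hg38 come, per the submitters' processing notes, with no role or version. Block counts were used as deposited.

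Exact duplicate lines (4, 3, 2 and 1) were removed. Overlap of blocks was computed in Python 3.11.15, tested on simulated data and checked against bedtools 2.31.1, with 0 differing calls. The 13566 Ensembl IDs were named by position in RefSeq (GRCh38.p14) spans on the same strand when at least 90% of peak bases lay in 1 gene, conflicts needing a 3-fold excess and then elimination; 10675 (78.7%) got a name, which can be wrong where genes overlap. Sequences come from RefSeq tables of the same build.

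Members and the 22 gene lists were chosen with earlier results of these data known. Named genes are those of the 10 best-scored antibody-only peaks in genes with no m6A-ORL peak under their ID or, on either strand, inside their span, the 10 best in genes listed by both m6A-ORL libraries, the 10 genes with the most, writer and reader genes with an antibody-only peak, and 3 per other list, of which 1 gene is not reported here; readable sequences and noncoding genes were picked after their values were seen. The labels do not tie replicates to separate cultures, so p-values measure only the spread between these libraries. The numbers of peaks (20760 and 20216 against 11022 and 7661) were compared between methods by an exact two-sided permutation test over 3 splits (p = 0.33, the smallest possible). Overlap chose the peaks, so other values are descriptions. The 12 alternatives changed replicates, strand, overlap, span and score limits.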

Additional observations from a re-analysis of the deposited data

How the results depend on the processing

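With the better-scored 50% of each MeRIP list, 4401 peaks in 3349 genes were antibody-only, 47.3% of reproduced peaks, with a median width of 354 nt, 19.75% of more than 1 block, 41.1% in the last 10% of the span, 10.1% near the 5' end and 43.2% in genes with no m6A-ORL peak. With the better-scored 50% of each m6A-ORL list the share was 76.7%, the median width 240 nt and 16.1% had more than 1 block. Here 39.2% were in genes with no peak in either full m6A-ORL list, since gene groups were not redone for the better-scored 50%. Asking m6A-ORL to cover 50% of the peak gave 83.7%, 268 nt and 17.7%, with 36.1% in genes with no m6A-ORL peak. With no m6A-ORL peak within 200 nt the share was 57.5%, and 51.3% were in genes with no m6A-ORL peak. With the better-scored 50% of each MeRIP list, all genes with an antibody-only peak fell from 6550 to 3349. Alongside, HOX genes fell from 19 to 10, Notch from 13 to 6, Polycomb from 10 to 6 and ZNF from 209 to 103. Without peaks facing an opposite-strand peak, an alternative chosen after seeing the data, 14.6% had more than 1 block and 46.3% were in genes with no m6A-ORL peak.

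Leaving out 1 library at a time gave 12385 to 14440 antibody-only peaks in 7141 to 7924 genes, since each step loosens the rule. Without m6A-ORL replicate 1 or 2, 83.2% or 71.4% of reproduced peaks were antibody-only. Without MeRIP replicate 1 or 2 no reproduction was asked for, and 66.6% or 66.1% of all peaks of the remaining MeRIP list were antibody-only. The median width ran from 181 to 240 nt and the share with more than 1 block from 13.6% to 17.7%. The last 10% of the span held 36.2% to 38.1%, and 9.46% to 12.1% lay near the 5' end. Genes with no peak in either full m6A-ORL list held 36.2% to 48.4%. For that share the gene groups still used both m6A-ORL lists, also where 1 was left out of the rule. Reader genes with an antibody-only peak numbered 7 without m6A-ORL replicate 1 and 8 without replicate 2, against 4. The peak number difference between methods was 11146 and ran from 9466 to 12827; with the replicate number as a block it was 11146 (exact permutation p = 0.5, the smallest possible), and the labels tie no same-numbered libraries to each other. Motif windows around peak centres need a genome and were not run. With at least 100 readable nt, chosen after seeing the data, 59.9% of antibody-only and 54.2% of shared peaks held a GGAC word. Read depth is unknown.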
